A study of Homo sapiens with 18 samples.

Results

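H3K9me3 domains of at least 20 kb were examined in NB4 cells, an established human cell line of acute promyelocytic leukemia (APL). The domains were found by merging the H3K9me3 peaks of 6 libraries wherever they overlapped by at least 1 bp, on chromosomes 1 to 18 and 20 to 22. Of 45475 merged regions, 13714 held a peak in all 6 lists, and 1173 of these were at least 20000 bp wide. A domain was kept when no peak of the 6 H3K4me3 lists overlapped it, which left 593 domains. The members were thus selected on the positions of H3K9me3 and H3K4me3 peaks, by a rule that treated both conditions alike. The width is that of all 6 lists merged, so a domain could reach 20000 bp through the peaks of a single condition. Chromatin immunoprecipitation followed by sequencing (ChIP-seq) had been performed on untreated cells and on cells kept for 24 h in 10 µM maltonis, a synthetic compound related to maltol. Each mark (H3K9me3, H3K4me3 and H3K27ac) was profiled in 3 replicates per condition, and peaks had been called in each library separately. All values come from a single cell line, and coordinates are those of the hg19 build, counted from 1.

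H3K9me3 is trimethylation of lysine 9 of histone H3. Dedicated methyltransferases write it, and HP1 proteins read it and help to compact chromatin. The mark covers repeat-rich DNA around centromeres and at chromosome ends, and it also forms blocks along chromosome arms that hold silenced gene clusters. H3K27ac marks active enhancers and promoters, and H3K4me3 marks active promoters.

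The 593 domains covered 17.9 Mb. Their median merged width was 25.4 kb (interquartile range 22 to 32.2 kb), and 402 of them were under 30 kb. A further 154 measured 30 to 50 kb, 37 measured 50 kb or more and 4 reached 100 kb. At the limit of the rule, 12 domains measured exactly 20.0 kb and 20 regions left out measured 19.8 kb. A domain just inside the limit, chr11:74568801-74588800, was called over 16.0, 19.2 and 16.0 kb in the untreated libraries and over 18.8, 18.4 and 13.0 kb in the maltonis libraries. A region just outside it, chr10:97557401-97577200, was called over 9.40, 6.20 and 8.40 kb and over 11.8, 7.80 and 4.80 kb.

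The name heterochromatin was set beside H3K27ac, whose peaks were not used by the rule. The rule left out regions with H3K4me3, however. Those of equal width had 33.7% of their bases under H3K27ac in untreated and 28.6% in maltonis libraries. The H3K27ac share of the domains is therefore not independent of the rule. No H3K27ac peak of any library touched 371 of the 593 domains (62.6%), whereas 95 domains carried H3K27ac in all 6 lists. In the untreated libraries 6.29, 7.27 and 7.33% of the domain bases lay under H3K27ac, beside 7.49, 7.91 and 7.80% of the chromosomes as a whole. The corresponding shares in the maltonis libraries were 4.50, 5.16 and 4.50% of the domains and 6.32, 6.25 and 5.87% of the chromosomes. The domain share was thus the lower in all 6 libraries, by a small margin. A part of the domains therefore overlapped regions called for an active mark, and they are referred to below as wide H3K9me3 domains.

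The domains were unevenly distributed among chromosomes. Chromosome 12 held 101, chromosome 9 held 99 and chromosome 7 held 86, which together made 48.2% of all domains against 25.9% of the regions called in all 6 lists. The 580 equally wide regions that overlapped H3K4me3 were concentrated there too, with 109, 102 and 109 on these chromosomes. The concentration was thus not particular to the domains. Chromosome 2 followed with 65. Chromosomes 6, 5, 11, 4, 10 and 8 held 35, 33, 30, 24, 21 and 20 domains, and chromosome 1, the longest, held 15. Chromosome 3 held 5, chromosome 22 a single domain, and chromosomes 14 and 21 none. The share of a chromosome's regions in all 6 lists that were wide domains was highest on chromosome 9 (13.3%), followed by chromosome 12 (8.50%), chromosome 8 (5.83%) and chromosome 7 (5.33%), and was 2.10% on chromosome 1.

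**Figure D1:**
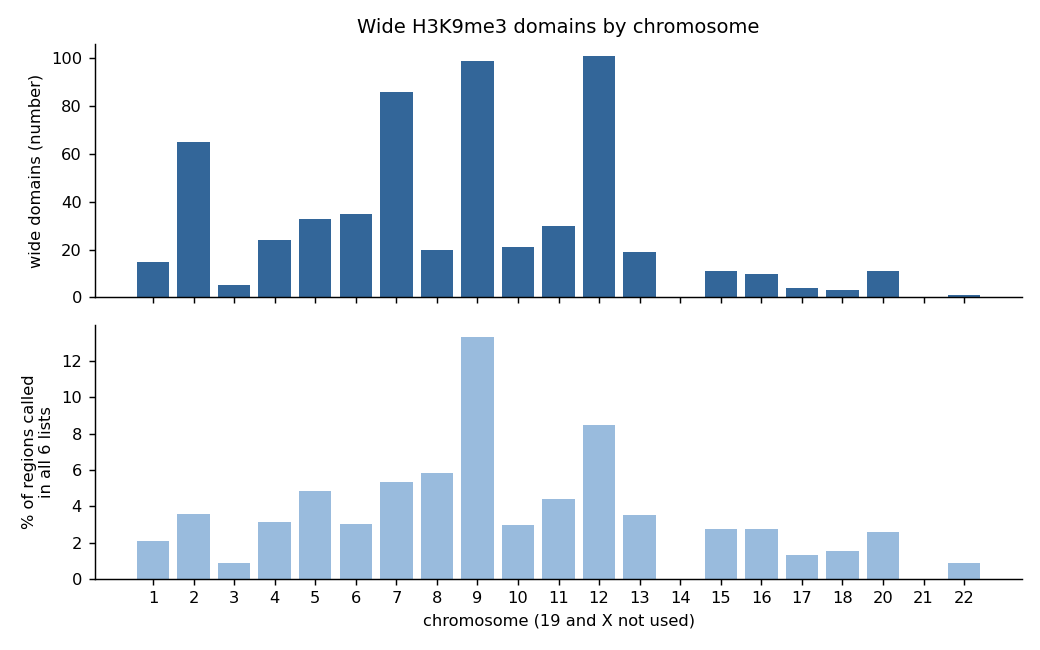
Number of wide H3K9me3 domains per chromosome (upper panel) and the same number as a percentage of the H3K9me3 regions of that chromosome called in all 6 lists (lower panel). Chromosomes 12, 9 and 7 stand highest in number, and chromosome 9 stands highest as a share, at 13.3%.

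Neighbouring domains lay close to each other. The nearest other domain was at a median distance of 184.4 kb, 243 domains (41.0%) had a neighbour within 100 kb and 423 (71.3%) within 1 Mb. When domains at most 1 Mb apart were chained, 170 stood alone and 6 chains held at least 10 domains each, 143 in all. The longest chains were on chromosome 9 (chr9:1127001-8056000, 49 domains) and chromosome 12 (chr12:18865201-26938000, 38 domains). The other chains were chr9:14328801-17651800 with 18 domains, chr12:28103001-29696400 with 16, chr2:144921401-146353800 with 12 and chr9:18686001-20612200 with 10. These 6 chains are called clusters below, and 77 of their domains were on chromosome 9, 54 on chromosome 12 and 12 on chromosome 2.

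A different group of domains bordered stretches without peaks. On 17 chromosomes the longest stretch free of H3K9me3, H3K4me3 and H3K27ac peaks was at least 3 Mb, and 57 domains (9.61%) lay within 2 Mb of it. The same distance held 2.03% of the 10196 narrower regions (under 20 kb, in all 6 lists, without H3K4me3) and 8.10% of the 580 equally wide regions that overlapped H3K4me3. Of the 37 domains of 50 kb or more, 15 lay there. No centromere annotation of hg19 was used here. Within 2 Mb of the outermost peak of a chromosome lay 5.40% of the domains and 6.15% of the narrower regions.

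The 57 domains beside empty stretches, the 143 domains in clusters and the remaining 393 had different profiles. Median width was 36.4 kb beside empty stretches, 28.4 kb in clusters and 24.4 kb elsewhere. Beside empty stretches the untreated libraries called 84.7, 87.0 and 87.7% of the domain bases and the maltonis libraries 85.8, 87.2 and 81.9%. In clusters the called share was 57.2, 59.4 and 59.8% in untreated and 72.7, 71.7 and 58.9% in maltonis libraries. The share beside empty stretches was thus the highest in all 6 libraries. Elsewhere the values were 67.7, 70.1 and 70.0% against 71.9, 70.4 and 60.7%, with overlapping conditions in all 3 groups of domains. Clusters had a lower called share than the domains elsewhere in the untreated libraries and maltonis replicate 3, and a slightly higher one in maltonis replicates 1 and 2.

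Read density also differed by position. The H3K9me3 reads per kb of called length were 21.3, 21.7 and 22.03 in the untreated libraries beside empty stretches, 17.4, 17.7 and 17.8 in clusters, and 19.6, 19.9 and 20.1 elsewhere. After maltonis they were 20.9, 20.3 and 19.2, then 17.4, 17.2 and 16.6, and then 19.01, 19.06 and 18.3. In every library the clusters thus had the lowest density and the empty stretches the highest. These values come from the lists that defined the domains, so they are a description and the difference between groups of domains was not tested.

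H3K27ac separated these groups further. Of the 57 domains beside empty stretches, 52 (91.2%) had no H3K27ac in any list, compared with 60 of 143 in clusters (42.0%) and 259 of 393 elsewhere (65.9%). In clusters 10.4, 13.6 and 13.3% of the domain bases lay under H3K27ac in untreated libraries and 8.08, 10.5 and 9.12% in maltonis libraries, which was 1.28 to 1.72 times the share of the chromosomes as a whole. Beside empty stretches the share was 0.758 to 0.992% in untreated and 0.172 to 0.281% in maltonis libraries. The clusters thus carried H3K27ac above the level of the chromosomes, whereas the domains beside empty stretches carried nearly none.

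**Figure D2:**
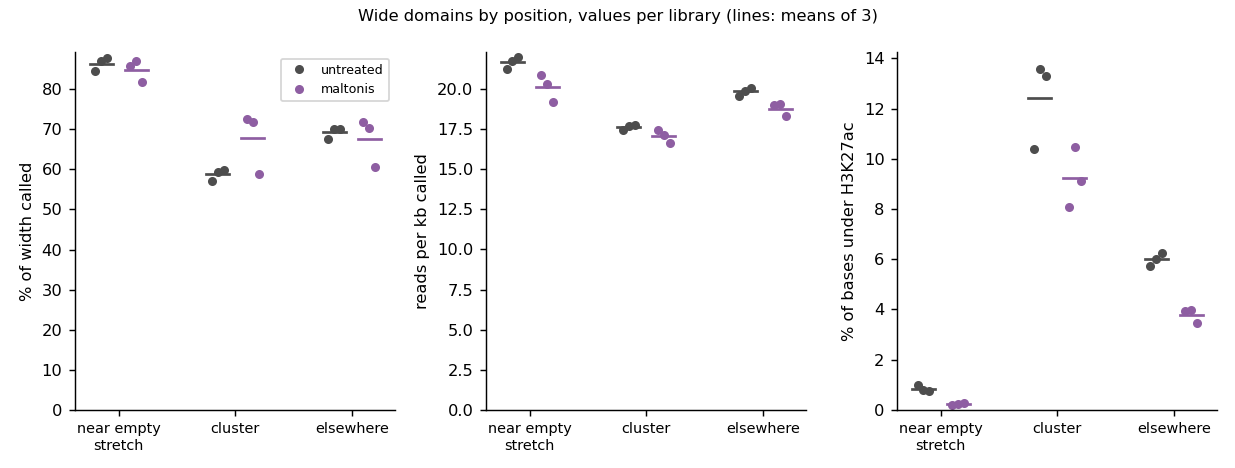
Called share of the domain bases, H3K9me3 reads per kb of called length and share of bases under H3K27ac for the 57 domains within 2 Mb of an empty stretch, the 143 in clusters and the 393 elsewhere. Points are libraries and lines are means of 3. Clusters had the lowest called share in untreated cells, the lowest density and the highest H3K27ac share.

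Cover by both marks was then taken over the whole interval of each cluster, domains included. The untreated means ranged between clusters from 325 to 586 kb per Mb for H3K9me3 and from 144 to 247 kb per Mb for H3K27ac. The bases between the domains were not measured apart. In the chromosome 12 cluster of 38 domains H3K9me3 peaks covered 450, 464 and 468 kb per Mb in untreated and 592, 581 and 489 kb per Mb in maltonis libraries, while over the chromosomes they covered 48.2 to 58.7 kb per Mb. H3K27ac peaks covered 230, 255 and 257 kb per Mb there in untreated cells and 178, 212 and 182 kb per Mb after maltonis, beside 58.7 to 79.1 kb per Mb over the chromosomes. H3K4me3, called with another tool, covered 7.74, 6.93 and 8.45 kb per Mb in the untreated libraries of this cluster and 8.01 to 8.16 kb per Mb over the chromosomes. Cover above that of the chromosomes was thus seen in this cluster for H3K9me3 and H3K27ac and not for H3K4me3. However, the cluster is a chain of domains chosen for wide H3K9me3 peaks and against H3K4me3 peaks. Its cover by H3K9me3 and H3K4me3 is therefore not independent of the rule. The part of the peak caller was not tested, and read counts of control libraries were not analysed here.

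Of the 10 widest domains, 6 lay beside empty stretches and 4 in clusters. The widest of all, chr8:43556001-43739600 (183.6 kb), lay 0.0992 Mb from the longest empty stretch of its chromosome. H3K9me3 peaks filled 171.2, 173.2 and 174.0 kb of it in the untreated libraries and 166.2, 166.8 and 151.2 kb in the maltonis libraries. The untreated libraries split it into 9, 7 and 7 peaks and the maltonis libraries into 10, 10 and 14. Called length was lower and the number of peaks was higher in every maltonis library than in any untreated one. Its neighbour chr8:43417801-43549800 (132.0 kb) was called over 121.8 to 126.2 kb in untreated and 121.6 to 126.0 kb in maltonis libraries, which overlap. Neither domain carried H3K27ac.

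On chromosome 5, the adjoining domains chr5:46006601-46097200 (90.6 kb) and chr5:46111601-46197000 (85.4 kb) were both within 0.31 Mb of an empty stretch and free of H3K27ac. The first of them was called over 85.2, 84.0 and 87.2 kb in untreated and over 87.4, 83.6 and 81.8 kb in maltonis libraries. Its number of peaks was 2, 2 and 1 in untreated and 3, 5 and 4 in maltonis libraries, so that the mark was more interrupted in every maltonis library although its length overlapped. A domain bordering them, chr5:45932801-46000400 (67.6 kb), went the other way, with 3, 5 and 3 peaks against 2, 2 and 2. The domains chr7:62370001-62457200 (87.2 kb) and chr12:34682801-34762600 (79.8 kb) were called over 81.4 to 85.8 kb and 76.2 to 78.2 kb, in no more than 3 peaks in any library.

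In the chromosome 12 cluster of 38, domain chr12:19708201-19883200 (175.0 kb) was called over 138.4, 149.4 and 157.0 kb in untreated and 153.8, 150.8 and 147.8 kb in maltonis libraries, in 9 to 12 peaks against 11, 12 and 18. It also carried H3K27ac in every library, over 27.6, 51.2 and 31.0 kb in untreated and 17.0, 22.2 and 18.6 kb in maltonis libraries. The domain chr12:20149001-20239800 (90.8 kb) was called over 57.6, 52.4 and 42.4 kb against 68.2, 65.8 and 52 kb, with overlapping conditions and no H3K27ac. A single base position was often not called in all libraries: only 37.6% of the bases of the 593 domains were called in all 6 lists, 11.5% were called in a single list, and 35 domains had no base common to all 6. The longest common stretch of a domain had a median of 5.20 kb over all domains, 11.0 kb beside empty stretches and 3.40 kb in clusters.

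**Figure D3:**
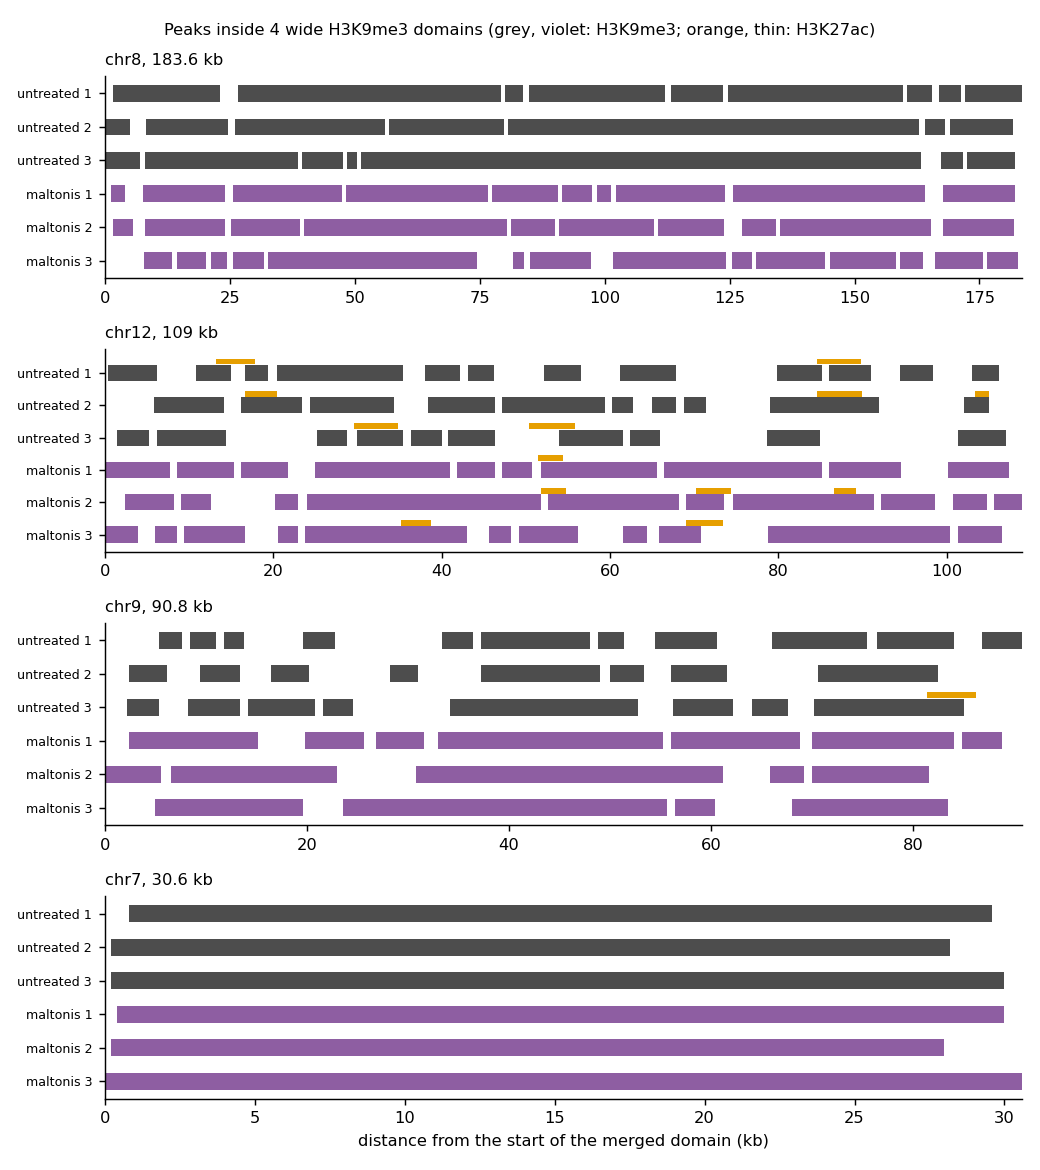
H3K9me3 peaks (thick bars, grey untreated, violet maltonis) and H3K27ac peaks (thin orange bars) of each library inside 4 domains, by distance in kb from the start of the domain. The widest domain (183.6 kb) was filled by long peaks and the 30.6 kb domain by a single peak in each library. Peaks shifted between libraries in the cluster domains of chromosome 12 (109.0 kb) and chromosome 9 (90.8 kb). They were up to 15 and 18.6 kb long in untreated libraries and up to 27.8 and 32 kb in maltonis libraries.

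Continuous domains were rare. Across libraries 124, 121 and 110 domains were called as 1 unbroken peak in untreated and 137, 127 and 105 in maltonis cells, but only 7 domains (1.18%) were unbroken in all 6 lists. The densest of these was chr7:158097401-158128000 (30.6 kb), which lay 0.997 Mb from the outermost peak of its chromosome, was called over 27.8 to 30.6 kb and carried no H3K27ac. It held 33.3, 34.9 and 33.6 reads per kb in untreated and 33.6, 34.6 and 30.9 in maltonis libraries. The highest density of all domains was that of chr7:99122401-99146000, with 34.3, 33.4 and 31.5 reads per kb against 34.3, 34.7 and 33.5. At the other end, chr7:25289801-25312800 held 12.7, 12.7 and 15.9 against 13.5, 11.5 and 10.0 reads per kb and was called over no more than 13.2 of its 23.0 kb.

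The effect of maltonis on the called length of the domains was examined first. H3K9me3 peaks covered 12.07, 12.49 and 12.52 Mb of the domains in the untreated libraries and 13.28, 13.11 and 11.34 Mb in the maltonis libraries. Maltonis replicates 1 and 2 were above all untreated libraries and maltonis replicate 3 was below them. The means were 12.4 ± 0.250 Mb and 12.6 ± 1.08 Mb (SD, n = 3 each), or 68.9 ± 1.40% and 70.2 ± 6.02% of the merged width, and the difference was within the spread of the replicates (exact two-sided permutation test, p = 0.8). Maltonis replicate 3 also had the fewest reads in H3K9me3 peaks, 2394083, beside 2758582 on average in maltonis and 3038866 in untreated libraries. Without it, the maltonis mean lay 0.838 Mb above the untreated mean and the conditions did not overlap. The part of this library's lower number of reads was not tested.

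Fragmentation did not separate the conditions either. The domains held 1493, 1478 and 1467 H3K9me3 peaks in untreated and 1378, 1416 and 1552 in maltonis libraries, so that the highest and the lowest values both came from maltonis cells. This corresponded to 2.49 ± 0.0220 peaks per domain without and 2.44 ± 0.154 with maltonis (SD, n = 3, exact permutation test, p = 0.6). Leaving out maltonis replicate 3 gave a difference of -0.139 with no overlap of the conditions, and without maltonis replicate 1 it was 0.00787. The longest peak of a domain averaged 13074 ± 437 bp and 13121 ± 1723 bp (exact permutation test, p = 1). Domains split into 5 or more peaks numbered 42, 37 and 26 in untreated and 24, 32 and 47 in maltonis libraries. In maltonis replicate 3 a domain was split into as many as 18 peaks, against 10 to 12 in the other libraries.

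Read density fell after maltonis when taken as deposited. The domains held 19.4, 19.7 and 19.9 reads per kb of called length in untreated and 18.9, 18.8 and 18.1 in maltonis libraries. All maltonis values were below all untreated values, and the means of 19.7 ± 0.262 and 18.6 ± 0.457 (SD, n = 3) differed by -5.59% (exact permutation test, p = 0.1, the smallest value that 3 against 3 libraries can give). Scaled to 1000000 reads in H3K9me3 peaks, the density was 6.48 ± 0.155 in untreated and 6.79 ± 0.658 in maltonis libraries. These means were in the opposite order and the conditions overlapped (exact permutation test, p = 0.7). The difference of the scaled means was 0.306 with all libraries and -0.0722 without maltonis replicate 3. The direction of the difference in density therefore depended on the scale, and for the scaled density on maltonis replicate 3.

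Density was then set against that of other H3K9me3 regions in the same library, and the direction depended on the regions taken. With maltonis the ratio was higher against narrower regions and lower against equally wide regions with H3K4me3, by small amounts. The ratio of the density of the domains to that of narrower regions was 1.02 ± 0.00187 before and 1.05 ± 0.00354 after maltonis (SD over 3 libraries each). Maltonis libraries were all above the untreated ones (exact permutation test, p = 0.1). By medians of the regions the ratio was 0.984 ± 0.00411 in untreated and 1.01 ± 0.00876 in maltonis libraries, likewise without overlap (exact permutation test, p = 0.1). The narrower regions went from 19.2 to 17.7 reads per kb. To equally wide regions with H3K4me3, the ratio was 0.679 ± 0.00406 before and 0.670 ± 0.00269 after maltonis, without overlap and in the opposite direction (exact permutation test, p = 0.1), and by medians it overlapped (0.955 and 0.952, exact permutation test, p = 0.5). These regions went from 29.0 to 27.7 reads per kb. The domains took 8.01 ± 0.0388% of the reads in H3K9me3 peaks in untreated and 8.49 ± 0.0624% in maltonis libraries, also without overlap (exact permutation test, p = 0.1). This share is not a density. The domains' share of the called length went from 7.87 ± 0.0698% to 8.44 ± 0.141%, likewise without overlap (exact permutation test, p = 0.1). In relative terms the share of reads differed by 6.01% and the share of called length by 7.25%. With 39 comparisons of library values, every raw p of 0.1 became 0.205 after Benjamini-Hochberg adjustment of the exact tests.

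**Figure D4:**
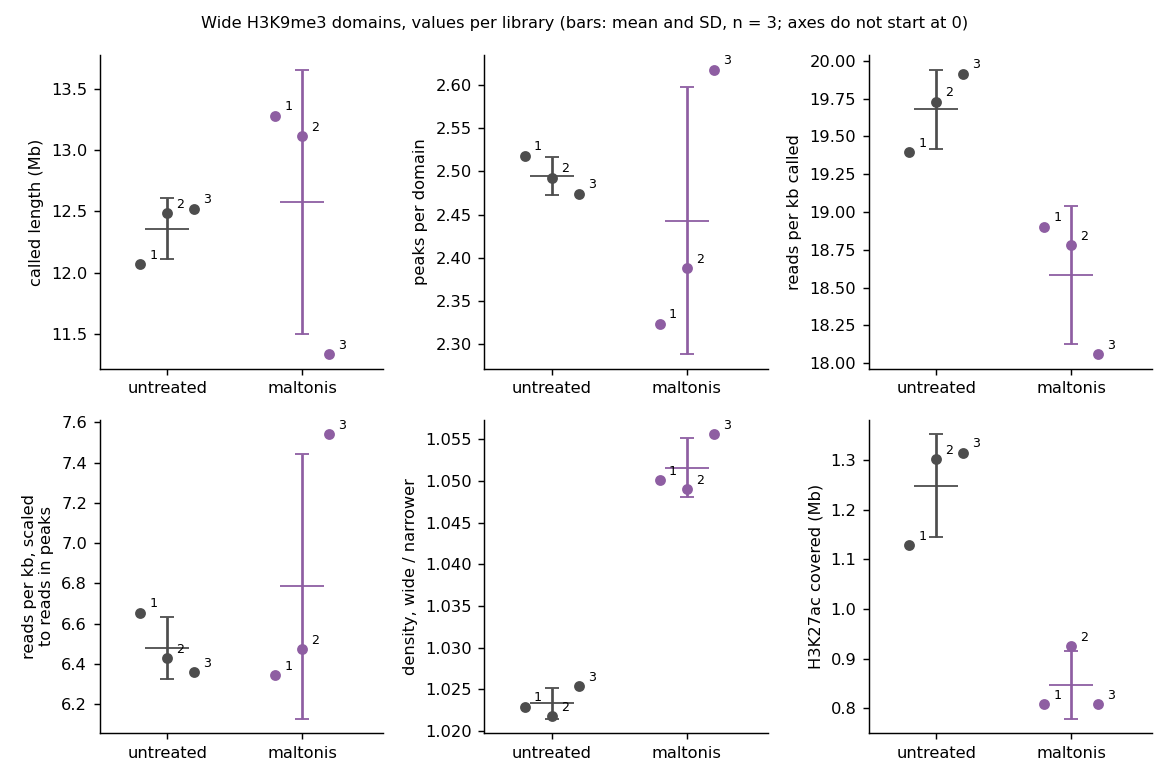
Values of each library over the 593 domains, with mean and SD (n = 3): called length, peaks per domain, reads per kb as deposited, reads per kb scaled to the reads in peaks, density ratio of the domains to narrower regions, and length covered by H3K27ac. Numbers beside points are replicates and axes do not start at 0. Maltonis replicate 3 lies apart in the first 2 panels, whereas the conditions separate in reads per kb as deposited, in the density ratio and in H3K27ac.

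Single domains were then followed in all libraries. Because the merged width pools both conditions, a domain could pass the width limit through the libraries in which it was called longer. The counts below are therefore a description. The called length was longer in every maltonis library than in any untreated one for 53 domains (8.94%), where 5.24% of all 13714 regions in all 6 lists met this criterion. It was shorter for 32 domains (5.40%), against 5.42% of all regions, so that the share of longer domains stood above the background and that of shorter domains did not. This excess depended on single libraries: without maltonis replicate 3, 123 domains were longer and 43 shorter, without maltonis replicate 1 the numbers were 59 and 84, without maltonis replicate 2 they were 71 and 75, and without untreated replicate 1 they were 74 and 76. Among the domains in clusters 28 of 143 were longer and 4 shorter, whereas elsewhere 23 of 393 were longer and 24 shorter, and beside empty stretches 2 and 4 of 57. In clusters the longer domains outnumbered the shorter ones whichever library was left out, from 29 against 8 without maltonis replicate 1 to 53 against 5 without maltonis replicate 3. A library was left out of the comparison only, while domains, merged widths and clusters stayed those of all 6 lists. Domains that reached the width limit through maltonis peaks thus remained, so these counts are not independent of the selection. Of the 149 domains with the lowest read density, 20 were longer and 4 shorter, and of the 148 with the highest, 7 and 6. The number of peaks was higher without overlap in 8 domains (1.35%, background 0.357%) and lower in 15 (2.53%, background 0.707%), 23 in all (3.88%, background 1.06%). These backgrounds were not matched for width: 10196 of the 13714 regions were narrower than 20 kb and without H3K4me3. Peak number goes with width, with an untreated mean of 1.56 peaks at a limit of 10000 bp and 2.49 at the limit used. The part of width in these shares was not tested.

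The chromosome 12 cluster of 38 domains held 14 of the longer domains and none of the shorter ones. Its domains were called over 56.1, 59.3 and 60.0% of their width in untreated and 76.6, 73.9 and 62.3% in maltonis libraries, without overlap. Narrower regions inside the same interval behaved alike, with 49.0, 51.4 and 54.2% in untreated and 70.6, 61.8 and 58.9% in maltonis libraries. The largest gain was that of chr12:19104001-19213000 (109.0 kb), called over 63.6, 69.8 and 53.4 kb in untreated and 92.8, 90.8 and 79.6 kb in maltonis libraries. Its number of peaks stayed between 10 and 12 in all libraries, while its longest peak measured 8.20 to 15 kb in untreated and 18.8 to 27.8 kb in maltonis libraries.

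Gains were also seen on chromosome 9. The cluster of 10 domains at chr9:18686001-20612200 was called over 52.7, 50.5 and 54.6% of the domain width in untreated and 71.1, 70.3 and 59.9% in maltonis libraries. Within it, chr9:18925201-19016000 (90.8 kb) rose from 53.6, 47.0 and 61.0 kb to 76.4, 67.4 and 66.0 kb. Its peaks decreased from 11, 8 and 8 to 7, 5 and 4, so that fewer and longer peaks were called in every maltonis library. In chr9:2861801-2894000 (32.2 kb) the called length was 3.20, 14.4 and 3.20 kb against 27.6, 25 and 14.8 kb. The merged width of this domain thus drew mostly on maltonis peaks. The cluster of 49 domains had 5 longer domains and 1 shorter, with 59.1, 61.3 and 60.4% called in untreated and 72.2, 72.6 and 57.7% in maltonis libraries. There the conditions overlapped because of maltonis replicate 3.

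The shorter domains were more scattered. After the 183.6 kb domain of chromosome 8, the largest losses were those of chr5:59357201-59403400 (46.2 kb) and chr12:48987201-49010000 (22.8 kb). The former was called over 29.2, 34.2 and 28.8 kb in untreated and 21.8, 25.2 and 18.2 kb in maltonis libraries. The latter was called over 17.4, 19.4 and 18.4 kb against 9.80, 7.40 and 12.8 kb, and its peaks went from 3 in every untreated library to 2 in every maltonis library. None of these domains carried H3K27ac. On chromosome 9, chr9:32814001-32851200 (37.2 kb) was split into 1, 2 and 1 peaks in untreated and 3, 3 and 5 in maltonis libraries. Domain chr16:34987801-35023000 (35.2 kb) went from 5, 3 and 4 peaks to 2, 2 and 2.

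**Figure D5:**
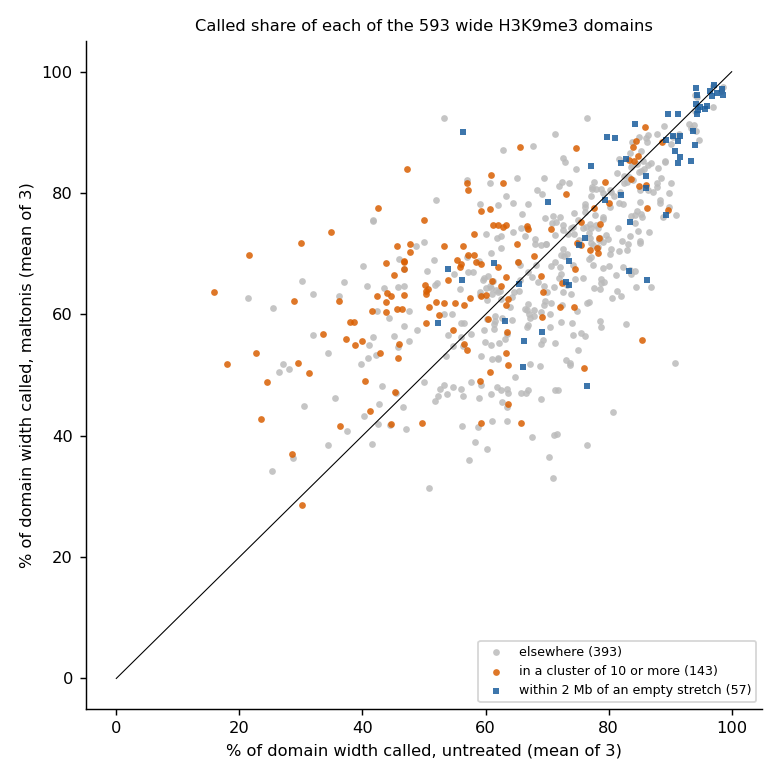
Mean share of the width called in untreated (x axis) and maltonis libraries (y axis, both in %, means of 3) for each of the 593 domains, by position; the line marks equal shares. Domains beside empty stretches gather at high shares near the line, and more of the cluster domains with low untreated shares lie above it.

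Summed reads per domain were compared with edgeR's quasi-likelihood test over all 13714 regions. At a false discovery rate (FDR) of 0.01 and a log2 fold change of 0.58, 6 domains had more reads after maltonis, beside 0.204% of all regions tested. Fewer reads were called for 0 domains, beside 0.00729% of all regions, although DESeq2 called 2 (0.337% of the domains, beside 0.284% of all regions). DESeq2 called 22 domains with more reads (3.71%), beside 0.911% of all regions. At an unadjusted p under 0.05, edgeR gave more reads for 109 domains (18.4% of the domains, beside 8.27% of all regions) and fewer for 39 (6.58% of the domains, beside 5.43% of all regions). None of the shares of all regions given for read counts was matched for width or number of reads. The 75% quantile of the log2 fold change was 0.22 for the domains and 0.21 for all regions. Without a single library edgeR called 0 to 3 domains, 0 of them without untreated replicate 1 or 3 or maltonis replicate 1 or 2. Of the 6 domains, 5 were on chromosome 12 and 4 of them in the cluster of 38. The median log2 fold change of the domains was 0.03, and that of all regions was 0.00 to 2 decimals. By position, the medians were 0.28 in clusters, -0.03 beside empty stretches and -0.01 elsewhere.

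Lowest in FDR was chr12:18956801-19020000 (63.2 kb). It held 592, 612 and 595 reads in the untreated and 927, 866 and 746 in the maltonis libraries, with a mean of 599.7 ± 10.8 against 846.3 ± 92.1 (SD, n = 3; log2 fold change 0.61 ± 0.07 SE, edgeR FDR = 0.00304). The 109.0 kb domain of the same cluster held 981, 1088 and 856 reads against 1520, 1565 and 1206 (log2 fold change 0.66 ± 0.09 SE, edgeR FDR = 0.00713). The domain chr12:19213201-19265400 (52.2 kb) had a mean of 351.7 reads in untreated and 557.3 in maltonis libraries. In chr12:24330801-24361600 (30.8 kb) the means were 70.7 ± 9.29 and 264.0 ± 123 reads, with 127 in maltonis replicate 3 and over 300 in the other maltonis libraries. This domain was called over 4.4, 4 and 6.2 kb in untreated and 27.2, 23 and 8.6 kb in maltonis libraries, so its merged width drew mostly on maltonis peaks. The remaining calls were chr12:107291001-107311800 and chr13:99784201-99819600, with log2 fold changes of 0.95 each.

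All 6 of these domains were also among the 53 with a longer called length, and a summed count grows with the length called. With the called length as an offset, edgeR called 0 domains in either direction, beside 0.124% of all regions with more and 0.0365% with fewer reads, while at an unadjusted p under 0.05 more reads were seen for 66 domains (11.1%, beside 5.02% of all regions) and fewer for 23 (3.88%, beside 5.57% of all regions). The largest change of any domain was then 0.41 in absolute log2 value. The domain chr12:24330801-24361600 went from a log2 fold change of 1.98 to -0.0032. The reads per kb of the 109.0 kb domain were 15.4, 15.6 and 16.0 in untreated and 16.4, 17.2 and 15.2 in maltonis libraries, which overlap.

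H3K27ac within the domains decreased after maltonis. It covered 1.13, 1.30 and 1.31 Mb of the domains in the untreated libraries and 0.808, 0.925 and 0.808 Mb in the maltonis libraries. The maltonis values were all below the untreated ones, with means of 1.25 ± 0.104 and 0.847 ± 0.0678 Mb (SD, n = 3, exact permutation test, p = 0.1), a difference of -32.2%. Over the chromosomes as a whole H3K27ac went from 211.5 to 168.0 Mb, a difference of -20.6%, also without overlap. The share of all H3K27ac that lay in the domains was 0.590 ± 0.0342% in untreated and 0.504 ± 0.0369% in maltonis libraries (exact permutation test, p = 0.1). The relative difference was thus larger in the domains than over the chromosomes. The share of bases under H3K27ac differed by -25.9% in narrower regions and by -15.3% in equally wide regions with H3K4me3, both without overlap. By position it differed by -25.7% in clusters, where conditions overlapped, -36.8% elsewhere and -72.8% beside empty stretches.

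The domains with H3K27ac numbered 165, 160 and 174 in untreated and 137, 155 and 146 in maltonis libraries. In 12 domains it was called in all untreated and no maltonis libraries, which is 2.02% of the domains and 2.01% of all regions in all 6 lists. In 5 the reverse was seen (0.843% of the domains, 0.503% of all regions). H3K27ac length was lower without overlap in 59 domains (9.95%, background 8.17%) and higher in 8 (1.35%, background 1.53%), shares near those of all regions. In chr9:3893001-3951200 (58.2 kb) it covered 42.8, 44.8 and 44.6 kb in untreated and 13.0, 14.8 and 16.0 kb in maltonis libraries, while H3K9me3 covered 53.0, 45.8 and 48.0 kb and 51.2, 49.8 and 47.8 kb. In chr12:26887201-26938000 (50.8 kb), the domain with the most H3K27ac, it covered 31.0, 33.4 and 30.8 kb against 35.0, 34.8 and 26.4 kb. Thus H3K27ac was lower in every maltonis library in the first of these and overlapped in the second.

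Direction also differed between clusters. In the chromosome 2 cluster H3K27ac covered 185, 212 and 202 kb per Mb in untreated and 258, 274 and 245 kb per Mb in maltonis libraries, opposite to the chromosome 12 cluster of 38 domains. The H3K9me3 called share of its 12 domains overlapped between conditions, at 59.7, 66.8 and 64.7% against 60.0, 68.4 and 53.9%. The difference between the clusters was not tested.

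Compared with narrower regions, the domains carried H3K27ac over 1.27 ± 0.0848 times the share of bases (SD over 6 libraries, range 1.13 to 1.36). The ratio was above 1 in 6 of 6 libraries (exact two-sided sign-flip permutation test, p = 0.031, the smallest value that 6 libraries can give, and 0.0357 after Benjamini-Hochberg adjustment over 8 comparisons). Narrower regions had mean shares of 5.23% in untreated and 3.88% in maltonis libraries. For the domains the means were 12.4 and 9.23% in clusters, 5.99 and 3.79% elsewhere, and 0.841 and 0.229% beside empty stretches. A clearly higher share than in narrower regions was thus seen only in clusters. Against equally wide regions with H3K4me3, the share was 0.186 times as large, which is given without a test because the rule separated these regions from the domains by a mark of active promoters. With the bases of all domains pooled, H3K27ac was less frequent where all 6 lists called H3K9me3 than where a single list did. It lay on 9.83, 10.2 and 10.9% of the bases called in a single H3K9me3 list in untreated libraries and on 4.06, 5.16 and 4.66% of the bases called in all 6. After maltonis the shares were 7.22, 8.42 and 6.88% and 3.01, 3.57 and 2.81%. Domains in clusters had short common stretches (median 3.40 kb) and much H3K27ac, and those beside empty stretches long ones (11.0 kb) and little. The part of such differences between domains in the pooled shares was not tested.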

How the data were processed

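The 18 ChIP-seq libraries (3 marks, untreated or 10 µM maltonis, 3 replicates each) were grouped by their titles; the study describes them as biological triplicates. Per the submitters' processing notes BWA, SAMtools, MACS2, SICER and hg19 were used, and the methods of the study name MACS2 for H3K4me3 and epic2 for the other marks. Versions, parameters and controls are not given in the sources used here. The deposited H3K9me3 and H3K27ac lists give for each peak a raw read count and an island score, in steps of 200 bp windows and with boundaries that differ between libraries. The deposited H3K4me3 lists give a score, a fold enrichment and −log10 p and q values, of which only the positions were used. No column belonged to other samples. Reads in H3K9me3 peaks ranged from 2595814 to 3366296 per library over all chromosomes listed. Total sequencing depth was not used here.

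The domains, their groupings and the tests were chosen with earlier results of these data known, and the groups by position were formed after the data were examined. Called length is the number of domain bases under the peaks of a library. For library values, an exact two-sided permutation test took all 20 assignments of 6 libraries (smallest p 0.1). Reads summed per merged region were tested with edgeR 4.0.16 (TMM, quasi-likelihood, Benjamini-Hochberg) in R 4.3.3, checked on simulated data; DESeq2 1.42.0 was an alternative. Domains named are the 10 widest, those next to the width limit, those called by edgeR, the 3 with the largest change in each direction among those without overlap, the 3 with the highest and lowest density and the 3 with most H3K27ac. From these groups the domains of most use to the comparison are given. Python 3.11.15 was used otherwise. A genome or gene annotation of hg19 was not used here, so genes and sequences of the domains are not given.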

Additional observations from a re-analysis of the deposited data

How the results depend on the processing

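The changes with maltonis in called length (+0.217 Mb), peaks per domain (-0.0517), longest peak (+46.7 bp) and scaled density were within the spread of the replicates, and their signs moved with the processing; the cause was not tested. Called length differed by -0.417 Mb with a width limit of 10000 bp (3694 domains) and by -0.0915 Mb with peaks merged within 1000 bp (759 domains). Peaks per domain differed by 0.0326 with the strongest 75% of peaks, by 0.0495 without overlap at a common score floor, by 0.315 at 50000 bp or more (37 domains) and by -0.119 without overlap when merged within 1000 bp. The longest peak differed by -12.5 bp at 10000 bp, -2477 bp at 50000 bp and -111 bp when merged. Density differed by -1.10 reads per kb as deposited and by 0.268 scaled reads per kb over the whole merged width, both without overlap. By medians the log2 density ratio to narrower regions over 6 libraries was -0.00253.

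Leaving out each library in turn gave -0.135 to 0.838 Mb for called length, -0.139 to 0.00787 for peaks per domain, -541 to 1036 bp for the longest peak and -0.0722 to 0.527 for scaled density. It gave 0.0479 to 0.0573 for the log2 density ratio, where 5 libraries cannot pass the 0.05 threshold of the exact sign-flip permutation test, 124 to 166 domains without overlap in called length (85 in all 6 libraries) and 43 to 55 in number of peaks (23). Fewer libraries make such separation easier. The domains and clusters stayed those defined from all 6 lists. Without maltonis replicate 3, longer domains outnumbered shorter ones by 123 to 43, and without maltonis replicate 1 shorter ones outnumbered longer ones by 84 to 59. The change of the density ratio (0.0262 to 0.0295), H3K27ac length (-0.462 to -0.369 Mb), its share in the domains (-0.105 to -0.0675 percentage points) and the called share of the chromosome 12 cluster (9.60 to 16.8 percentage points) kept their direction under every alternative run for them.

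For read counts, edgeR called 6 domains, 0 with the length offset, 24 with DESeq2 (22 with more reads, 3.71% beside 0.911% of all regions) and 0 to 3 with a library left out: 0 without untreated replicate 1 or 3 or maltonis replicate 1 or 2, 3 without untreated replicate 2 and 2 without maltonis replicate 3. With the offset chr12:24330801-24361600 had a log2 fold change of -0.0032. A minimum of 20 reads removed no region. Deviations of libraries with the same replicate number correlated at 0.0041, -0.0189 and 0.0076, so the numbers were not taken to pair them. The fit with the replicate block called 1 domain, chr12:19104001-19213000 (edgeR FDR = 0.00994), and by differences within replicate numbers the called length differed by 0.217 Mb (exact sign-flip permutation test, p = 0.75).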
